A study of Mus musculus with 28 samples.

Results

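The collagen and integrin genes were followed through 2 marks of open, active chromatin in mouse lung adenocarcinoma cells. A member was any protein-coding gene of the mm10 RefSeq table whose symbol is Col, a number, a and a number, as in Col1a1, or Itga or Itgb with a number or letter. This gave 71 of 21900 genes, 44 collagens and 27 integrins. Chromatin immunoprecipitation and sequencing had been done for histone H3 acetylated at lysine 27 (H3K27ac) and at lysine 9 (H3K9ac), with 3 libraries per mark in each of 4 groups, and the 24 lists of called peaks were analysed. The group Sen was a wild-type cell line sensitive to PD-1 blockade. Res was the resistant line, wild-type by its genotype label, and its description adds treatment with PD-1 inhibitors. Res_Ctrl was the resistant line with the genotype Control, and Res_shFabp7 the resistant line with knockdown of Fabp7, a fatty acid binding protein, by a short hairpin RNA. The labels call the libraries of a group biological replicates but do not say whether they came from separate cultures, so p-values measure the spread between these libraries. The labels name 1 sensitive and 1 resistant line, so each comparison is one between these lines or their derivatives. The 4 input samples were not analysed here.

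Collagens are secreted as triple helices of alpha chains and build the fibrils, networks and anchoring structures of the extracellular matrix. Integrins are receptors of 1 alpha and 1 beta chain that hold cells to collagen, laminin, fibronectin or other cells and pass force and signals through talin and kindlin. Epithelial tumours sit on a basement membrane of collagen IV and laminin, while fibrillar collagens come mainly from fibroblasts. H3K27ac marks active promoters and enhancers and H3K9ac mainly active promoters, so a peak at a gene describes its chromatin and not its RNA.

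The sequences upstream of 5 members are shown because regions at or near their starts are described below. Each is the 250 bases before the start site in RefSeq GRCm38.p6, the assembly of mm10, read 5′ to 3′ on the strand of the gene. Itga2 (chr13:114932101-114932350, minus strand) lay in the region that fell most in Res. Itgb5 (chr16:33829415-33829664, plus strand) and Itgb8 (chr12:119238277-119238526, minus strand) lay in regions that rose or appeared there. Itgb1 (chr8:128685404-128685653, plus strand) encodes the beta chain that pairs with the collagen-binding alpha chains. Col1a2 (chr6:4505368-4505617, plus strand) stood next to a region seen only in Res. Capitals mark every match, on either strand, to 5 short motifs. These are the AP-1 site TGANTCA, the GC box GGGCGG, the CCAAT box, the TATA box TATAAA and the TEAD site GGAATG.
Itga2: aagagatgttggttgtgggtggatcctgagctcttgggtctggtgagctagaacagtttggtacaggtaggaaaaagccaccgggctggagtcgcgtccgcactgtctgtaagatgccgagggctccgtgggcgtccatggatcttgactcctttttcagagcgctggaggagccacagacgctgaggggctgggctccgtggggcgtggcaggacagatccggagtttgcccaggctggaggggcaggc
Itgb1: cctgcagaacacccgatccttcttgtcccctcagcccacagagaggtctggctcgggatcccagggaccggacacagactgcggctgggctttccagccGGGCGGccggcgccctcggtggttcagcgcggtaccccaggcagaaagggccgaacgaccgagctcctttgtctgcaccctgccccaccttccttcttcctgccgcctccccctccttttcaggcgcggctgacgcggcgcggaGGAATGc
Itgb5: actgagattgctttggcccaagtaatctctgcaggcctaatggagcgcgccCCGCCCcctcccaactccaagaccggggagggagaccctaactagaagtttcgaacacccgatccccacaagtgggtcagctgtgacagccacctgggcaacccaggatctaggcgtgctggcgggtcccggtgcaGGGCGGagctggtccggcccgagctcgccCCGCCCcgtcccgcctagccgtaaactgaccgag
Itgb8: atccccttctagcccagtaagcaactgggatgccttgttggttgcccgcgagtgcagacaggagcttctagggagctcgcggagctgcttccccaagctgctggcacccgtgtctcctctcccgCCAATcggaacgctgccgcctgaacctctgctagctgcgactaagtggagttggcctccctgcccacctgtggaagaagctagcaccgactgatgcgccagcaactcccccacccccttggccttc
Col1a2: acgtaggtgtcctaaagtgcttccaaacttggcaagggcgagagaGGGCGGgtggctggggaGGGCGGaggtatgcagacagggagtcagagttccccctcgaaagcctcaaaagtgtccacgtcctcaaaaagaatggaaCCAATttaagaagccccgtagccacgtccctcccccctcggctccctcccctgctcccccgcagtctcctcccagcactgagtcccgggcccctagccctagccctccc
The Itga2 window held none of the 5 motifs, Itgb1 held 1 GGGCGG and 1 GGAATG, and Itgb5 held 3 GGGCGG. The Itgb8 window held 1 CCAAT, and Col1a2 held 2 GGGCGG and 1 CCAAT. No annotated gene overlapped these 5 windows. The promoter table matched 54 of the 71 members, with 59 windows because some genes have more than 1 start. GGGCGG was in 29 of these 59 windows (49.2%) and in 32.7% of all 32851 windows of the same length. CCAAT was in 27.1% against 33.8%, TGANTCA in 3.39% against 6.75%, TATAAA in 8.47% against 12.4% and GGAATG in 10.2% against 12.6%. These are matches of letters, given as a description and not as bound sites.

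Per library, 11771 to 28934 peaks were listed, holding 2.24 to 11.5 M tags together. The H3K27ac list of Sen replicate 1 stood apart, with 15856 peaks and 2.24 M tags, so a region missing only there was not tested. The targeted gene Fabp7 had no peak in any library, and since the hairpin acts on the messenger RNA, the lists do not check the knockdown. All 5 epithelial markers had regions of both marks, but Epcam had H3K27ac in Res replicate 1 alone (16.2 tags per M, scaled). Its H3K9ac was listed only in Res replicates 1 and 2 (27.4 and 20.6), Res_Ctrl replicate 3 (18.2) and Res_shFabp7 replicate 2 (14.6). In H3K27ac of Res against Sen, 1 of the 4 tested rose (Cdh1, by 0.48, log2) and 2 fell (Krt8 by 0.53 and Krt18 by 1.08). In H3K9ac 1 rose (Krt19, by 0.27) and 3 fell (Cdh1 by 0.40, Krt8 by 0.45 and Krt18 by 0.96). Cdh1 thus moved in opposite directions in the 2 marks. Of 6 fibroblast markers, Lum, Postn, Thy1 and Pdgfrb had no peak of either mark, and Dcn and Pdgfra had H3K27ac in Res replicate 1 alone. Pdgfra also had H3K9ac in the 3 Res libraries (26.3, 23.7 and 19.1 tags per M, scaled) and in 1 Sen library (12.2). The endothelial list showed Cdh5 alone, and the leukocyte list Cd68 alone in a region shared with Mpdu1. Of the lung lineage list, Foxa2 fell by 0.92 in H3K27ac and 1.05 in H3K9ac, and Gata6 by 0.56 and 0.74. Sftpc, in a region shared with Bmp1, fell by 0.60 and 0.44, and Foxa1 did not pass (-0.006 and 0.042). Nkx2-1, the defining factor of alveolar cells, had no region. In bulk chromatin, fewer cells with a mark and less of the mark per cell cannot be told apart.

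Overlapping peaks of the 12 lists of a mark were merged into regions, and a region belonged to a gene if it touched the gene body or 1 kb on either side. H3K27ac gave 131 such regions at 41 members, of 32703 regions in the genome, and H3K9ac gave 72 at 35 members, of 20543. All 35 members with H3K9ac regions also had H3K27ac regions. Col14a1, Col16a1, Col1a2, Col22a1, Col6a3 and Col6a5 had H3K27ac alone. The remaining 30 members had no region of either mark. They were 20 collagens, among them Col3a1 of loose connective tissue, Col2a1 of cartilage and Col10a1 of growth plate cartilage, and 10 integrins, among them the leukocyte chains Itgal, Itgam and Itgax. The members were long genes, with a median of 77.14 kb against 17.15 kb over all genes. Col4a2, a main chain of basement membranes, had the most regions, 13 of H3K27ac and 8 of H3K9ac.

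Regions were spread unevenly over the roles of the members. Of the 11 fibrillar collagens, 5 had an H3K27ac region and 4 an H3K9ac region. Of the 9 collagens that sit on fibrils (FACIT), 4 and 1 did, and of the 6 chains of collagen IV, 4 and 4. The 4 alpha chains that bind collagen had regions at Itga1, Itga2 and Itga10, and none at Itga11. The 4 laminin-binding chains had regions in every library at Itga3, Itga6 and Itgb4, and none at Itga7. All 5 of the other beta chains, Itgb1, Itgb3, Itgb5, Itgb6 and Itgb8, had regions of both marks, and 3 of the 8 leukocyte chains did.

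The number of members with a region in all 3 libraries of a group was, for H3K27ac, 35 in Res, 28 in Res_shFabp7, 27 in Res_Ctrl and 25 in Sen. These are 49.3%, 39.4%, 38% and 35.2% of the members, while 49.6%, 53.9%, 49.2% and 47.2% of all genes had such a region. For H3K9ac it was 26, 31, 20 and 23 in the same order, or 36.6%, 43.7%, 28.2% and 32.4%, against 49.2%, 52.7%, 47.5% and 51.9% of all genes. The members' share was thus nearest that of all genes in Res for H3K27ac and in Res_shFabp7 for H3K9ac, with no test of the difference. Single libraries had 25 to 37 members with H3K27ac and 20 to 32 with H3K9ac. The 3 Res libraries, at 37, 37 and 35, were above the other 9 or level with the highest of them, since Res_shFabp7 replicate 3 also had 35. Over all genes the Res libraries were not the highest, at 54.8%, 51.4% and 51.1% against 47.6% to 57.0% in the 9 others. The lowest H3K27ac count, 25, was that of Sen replicate 1, the library with the fewest tags.

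**Figure D1:**
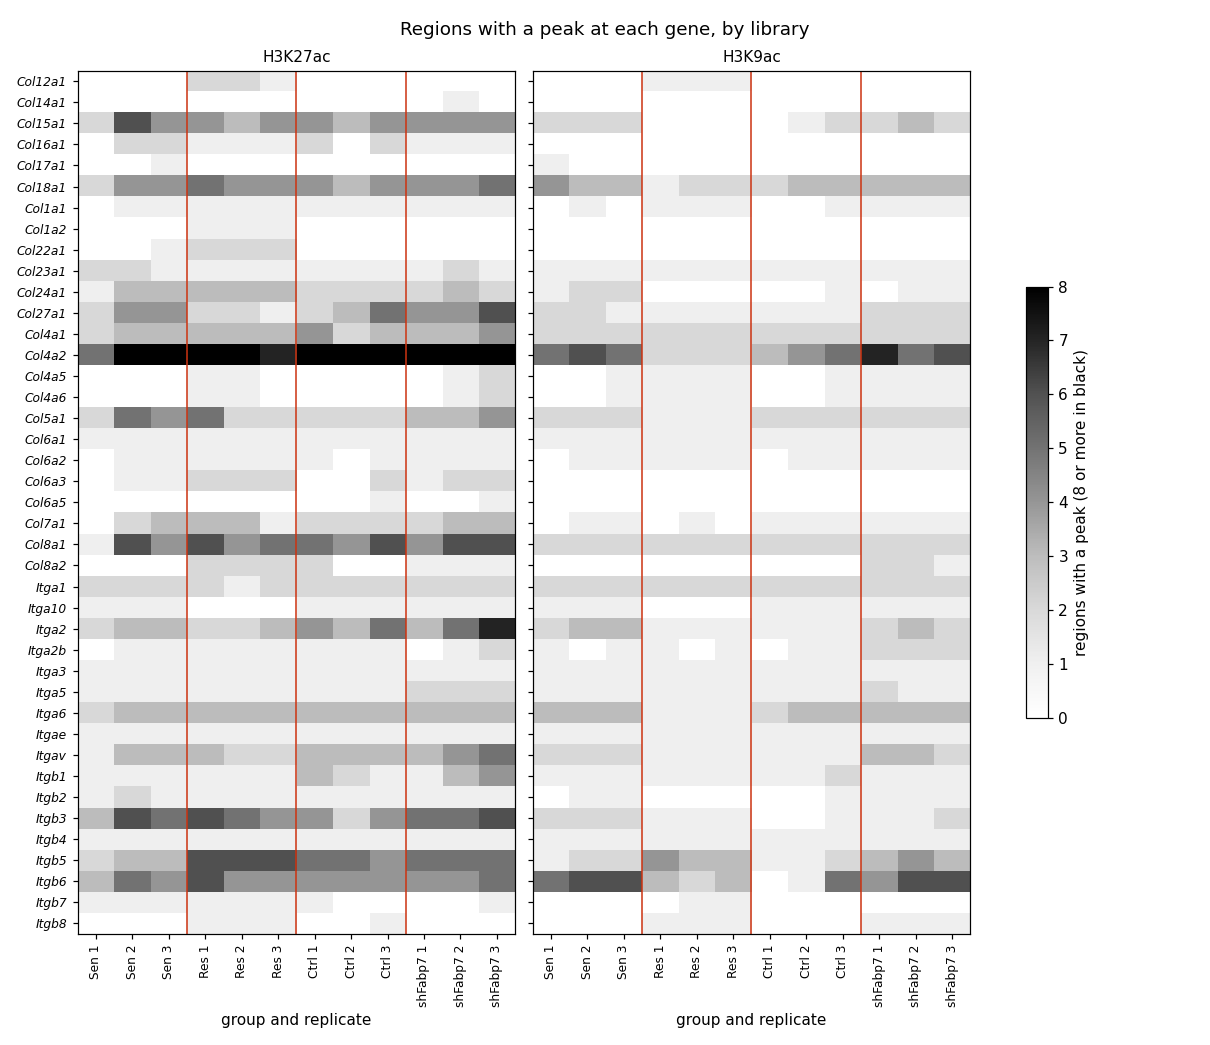
Number of regions with a called peak at each member (rows, in order of symbol) in each of the 12 libraries of H3K27ac (left) and H3K9ac (right), with darker squares for more regions. Ctrl and shFabp7 stand for Res_Ctrl and Res_shFabp7; Itga10 is empty in the 3 Res libraries of both marks, and Col12a1 is filled in those 3 alone.

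For each member, the region with the highest mean level served as its lead region. Levels are tags in the peaks of a region as counts per M tags (CPM), scaled by TMM over regions present in all 12 libraries of the mark. Lead regions covered a listed start site for 13 of 32 members with one in H3K27ac and for 16 of 28 in H3K9ac. They were in all 12 libraries for 21 and 18 members. Differences are log2 ratios ± SE from edgeR's quasi-likelihood test with Benjamini-Hochberg adjustment over all tested regions, with 3 libraries against 3, and rose or fell means an adjusted p below 0.05. A region without a peak in a compared library has no deposited count and was not tested. A region with a peak in all 3 libraries of 1 group and in none of the other is described as gained or lost, with no test.

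The first question of the design is how resistant cells differ from sensitive ones. The PD-1 inhibitor treatment is named for Res and not for Sen, so line and treatment cannot be told apart in this comparison. In Res against Sen the H3K27ac lead region rose at Itgb5, Itgb4, Itga3 and Itgae and fell at Itgb2, Col18a1, Itga5 and Itga6. These are 4 rises and 4 falls among 22 tested members, where 16.1% of all tested genes rose and 11.1% fell. The H3K9ac lead region rose at Itgb4, Itgb5, Itgb6, Itga3, Itgb1, Col23a1 and Itgae and fell at Itga2, Col27a1, Itgb3, Col18a1 and Col5a1. These are 7 and 5 of 20, against 28.9% and 24.4% of all tested genes, so the shares were near those of the genome. The median size of the log2 change in H3K27ac was 0.53 over 13 tested integrins, 0.22 over 9 tested collagens and 0.25 over all genes. In H3K9ac it was 0.31, 0.28 and 0.23.

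**Figure D2:**
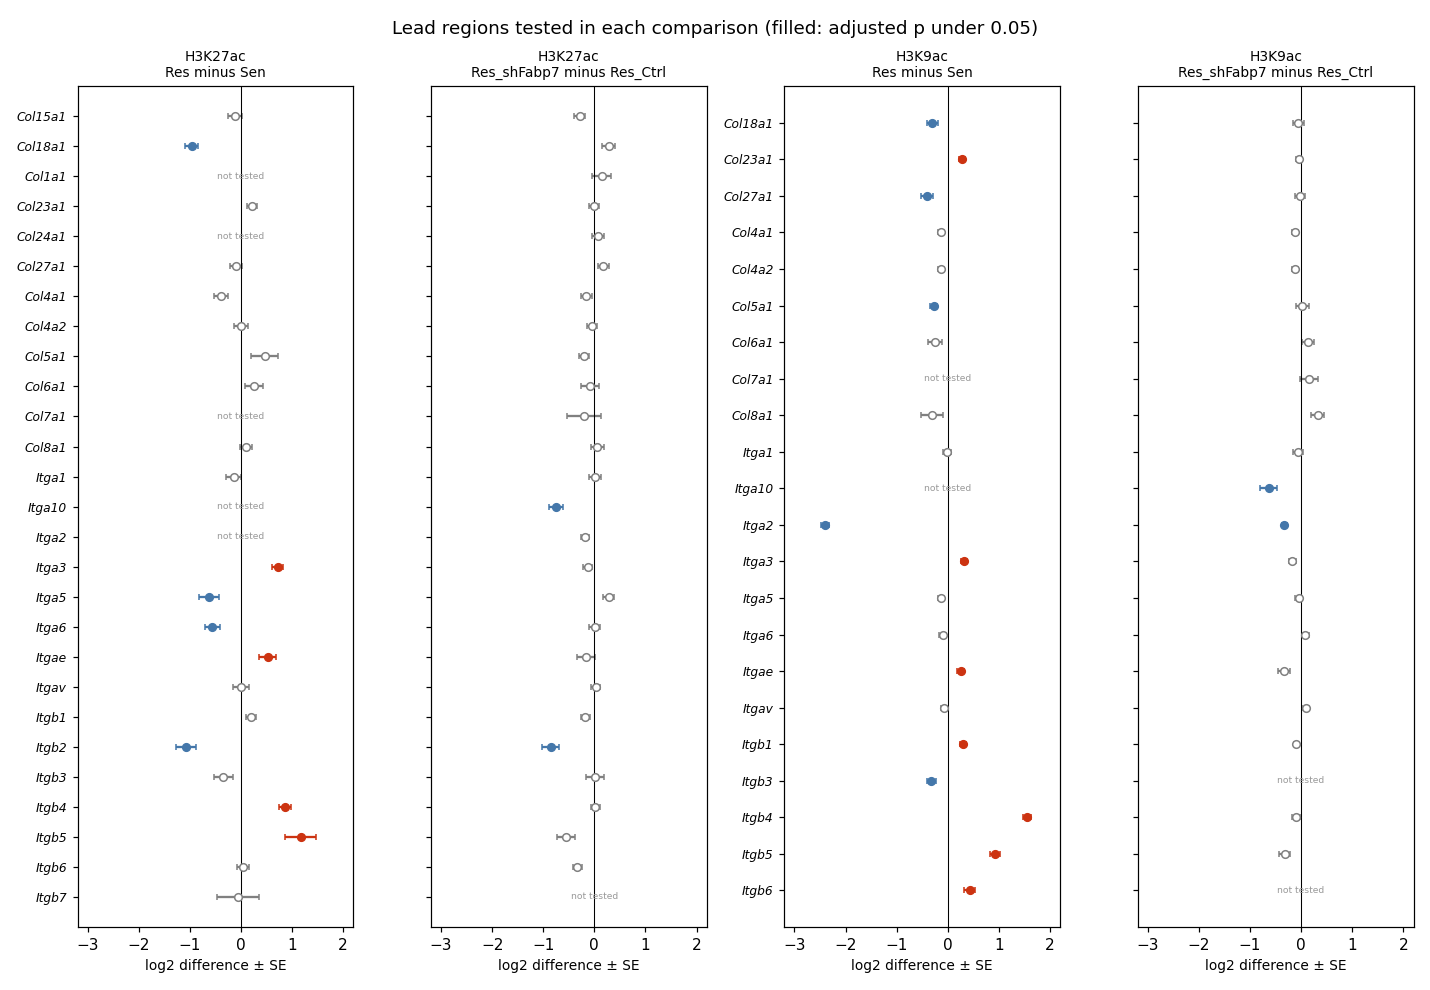
Log2 difference of the lead region of each tested member for Res against Sen and for Res_shFabp7 against Res_Ctrl, in H3K27ac and H3K9ac, with bars of 1 SE; red filled points rose, blue filled points fell and open points did not pass the test. Itga2 has the most negative H3K9ac value of Res against Sen, -2.40, and no filled point of Res_shFabp7 against Res_Ctrl is red.

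Itga2 encodes the alpha chain of the main epithelial receptor for collagen I. Its H3K9ac region over the start (chr13:114928662-114935120) stood at 143, 146 and 153 CPM in Sen and at 25.2, 29.9 and 28.4 in Res. It stood at 221, 217 and 214 in Res_Ctrl and at 178, 176 and 165 in Res_shFabp7. The 4 groups did not overlap, with Res the lowest and Res_Ctrl the highest. The level fell by 2.40 ± 0.08 in Res against Sen (5.28-fold lower, edgeR adjusted p = 1.3e-08), and the called length fell from a mean of 5871 bases to 1581. The call held under all 15 alternatives run, tags per called base among them. The H3K27ac region there (chr13:114928617-114936766) had 108, 149 and 112 in Sen, 29.7 and 25.6 in Res replicates 1 and 3, and no peak in Res replicate 2, so it was not tested. The 2 Res values were below all 9 of the other libraries.

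A second H3K27ac region inside Itga2 (chr13:114847359-114855105) lay 76995 bases from the start. It had 32.6, 94.3 and 107 in Sen, 16.2, 24.7 and 23.0 in Res, 143, 185 and 166 in Res_Ctrl and 62.6, 73.1 and 74.2 in Res_shFabp7. Its level in Res was below that of every other library, and Res_shFabp7 stood apart below Res_Ctrl. It fell by 1.91 ± 0.38 in Res against Sen (edgeR adjusted p = 0.0065), and per called base by 0.52 with an adjusted p of 0.18. The H3K9ac region inside it had a peak in the 3 Sen libraries (20.3, 22.0 and 22.0), in 1 Res_shFabp7 library and in no Res or Res_Ctrl library.

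Itga10, another alpha chain for collagen, lost its single region in Res in both marks. The region covers the downstream end of the gene (chr3:96662075-96665369), 16491 bases from the start. H3K27ac was 34.5, 25.4 and 31.3 in Sen, absent from Res, 70.3, 67.3 and 60.4 in Res_Ctrl and 33.6, 43.3 and 40.0 in Res_shFabp7. H3K9ac was 18.4, 19.6 and 26.9 in Sen, absent from Res, 40.4, 40.7 and 53.7 in Res_Ctrl and 28.7, 35.4 and 23.2 in Res_shFabp7. The smallest peaks that Res replicates 1 to 3 list were at 6.85, 9.05 and 8.79 CPM in H3K27ac and 13.7, 12.3 and 13.3 in H3K9ac. These are below the Sen values, in H3K9ac by little, so a modest H3K9ac drop could also read as absence. Res_Ctrl was the highest group in both marks, with no overlap with another group. Among H3K27ac regions seen in all 3 libraries of some group, 1 of 87 member regions was missing from Res alone, that of Itga10, against 2.27% of the genome's.

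Of the other chains that bind collagen, Itga1 did not pass in either mark and Itgb1 rose in H3K9ac. Itga1, whose lead region also covers Pelo, had H3K27ac of 63.3, 70.4 and 55.0 in Sen and 51.5, 64.8 and 54.8 in Res, a difference of -0.14 ± 0.15 that did not pass the test. Its H3K9ac difference was -0.02 ± 0.08. Itgb1, the shared beta chain, had H3K9ac of 195, 181 and 175 in Sen and 236, 225 and 217 in Res, and rose by 0.30 ± 0.06 (edgeR adjusted p = 0.0015). On chromosome 8, where Itgb1 lies, the median H3K9ac region rose by 0.32, and with chromosome medians removed Itgb1 was at -0.01. Its H3K27ac difference was 0.19 ± 0.10 and did not pass.

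**Figure D3:**
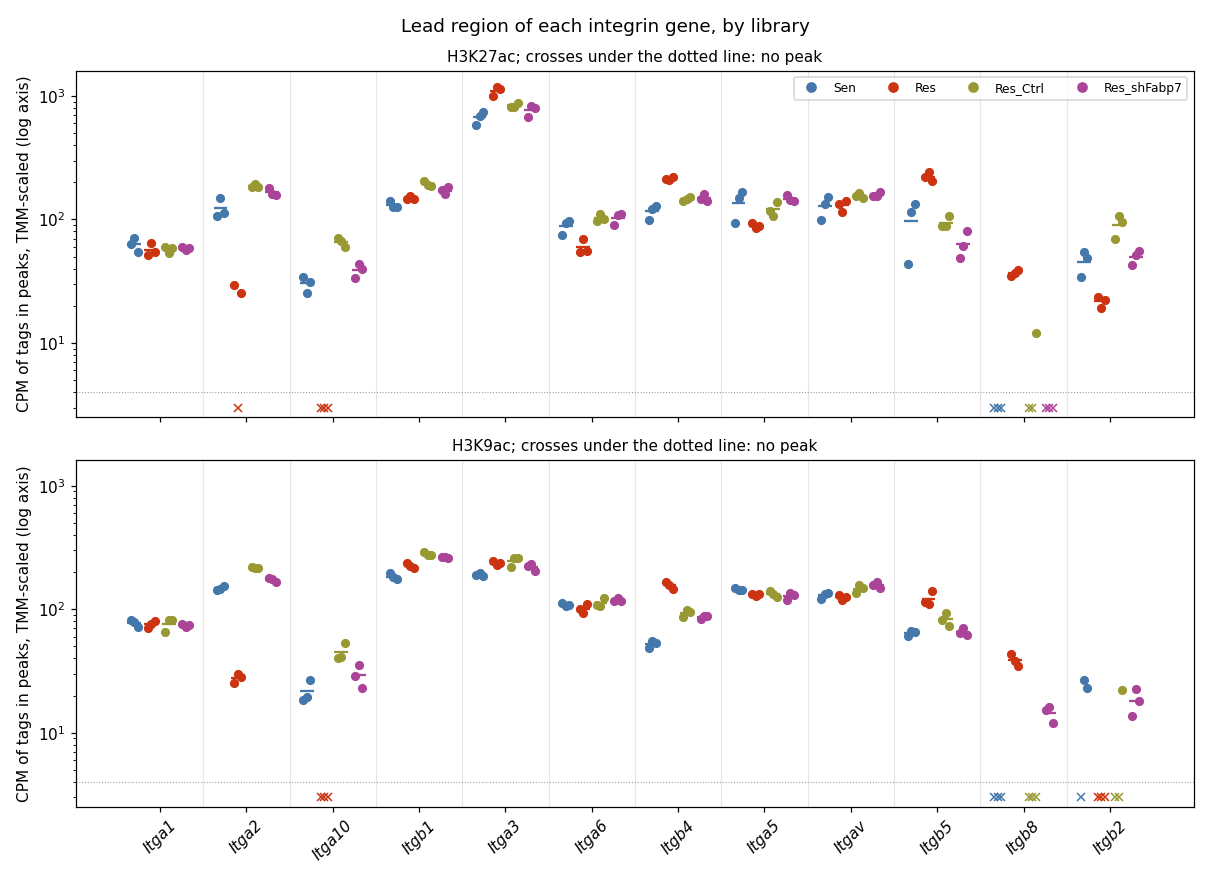
Level of the lead region (CPM, TMM-scaled, log axis) of integrin genes in each of the 3 libraries of the 4 groups, for H3K27ac and H3K9ac; short lines are means of groups with 3 peaks, and crosses under the dotted line stand for libraries with no peak. The H3K9ac points of Itga2 lie at 25.2 to 29.9 in Res and at 143 or more in the 9 other libraries.

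Laminin-binding integrins anchor epithelial cells to the basement membrane, and Itgb4, with Itga6, forms hemidesmosomes. Itgb4 had H3K9ac (chr11:115973450-115976890) of 49.0, 55.4 and 53.5 in Sen, 167, 158 and 146 in Res, 86.5, 98.4 and 94.1 in Res_Ctrl and 83.0, 88.7 and 87.9 in Res_shFabp7. Res was above and Sen below all other libraries. The level rose by 1.56 ± 0.07 in Res (2.94-fold, edgeR adjusted p = 6e-08), against a chromosome 11 median of 0.36, and the call held under all 16 alternatives run. H3K27ac at Itgb4 rose by 0.86 ± 0.12 (adjusted p = 0.00097), from 98.2, 122 and 130 to 213, 207 and 219. Per called base that H3K27ac difference was 0.27 and did not pass, as the mean called length grew from 5360 to 7929 bases.

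Itga3, the alpha chain for laminin in lung epithelium, had the highest H3K27ac level of the members. It had 580, 695 and 737 in Sen and 1001, 1178 and 1141 in Res, and rose by 0.72 ± 0.11 (edgeR adjusted p = 0.0014). Its H3K9ac rose by 0.32 ± 0.06 (adjusted p = 0.00061). With chromosome 11 medians removed, these were 0.31 and -0.04 and neither passed. The H3K27ac value per called base, 0.15, did not pass either. Itga6, the partner of Itgb4, fell by 0.56 ± 0.15 in a region inside the gene (chr2:71810572-71817761), while its start region was at -0.10 ± 0.12 and its H3K9ac start region at -0.10 ± 0.07. So Itgb4 and Itga6, which form 1 receptor, moved in opposite directions at their H3K27ac lead regions.

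Itgb5, a beta chain for vitronectin, gained H3K27ac along much of the gene in Res. The start region (chr16:33828434-33831646) had 50.8, 40.1 and 54.7 in Sen and 80.9, 79.3 and 96.2 in Res and rose by 0.82 ± 0.15 (edgeR adjusted p = 0.0045). The lead region inside the gene (chr16:33884019-33895250) had 43.3, 115 and 133 in Sen, 222, 242 and 203 in Res, 87.9, 88.2 and 108 in Res_Ctrl and 49.0, 61.5 and 81.0 in Res_shFabp7. It rose by 1.17 ± 0.31 (adjusted p = 0.022), and its mean called length grew from 5412 to 10480 bases. Of the regions between them, 3 had peaks in every Res library and in no Sen library. One of these 3, at chr16:33859772-33861164, was seen in Res alone, and another, at chr16:33876389-33880402, was missing from Sen alone, as 0.751% of the genome's regions were, with 3.09% in Res alone. H3K9ac over the start had 61.2, 66.5 and 64.8 in Sen and 114, 111 and 141 in Res and rose by 0.92 ± 0.09 (adjusted p = 1.1e-05), a call that held under all 16 alternatives run.

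**Figure D4:**
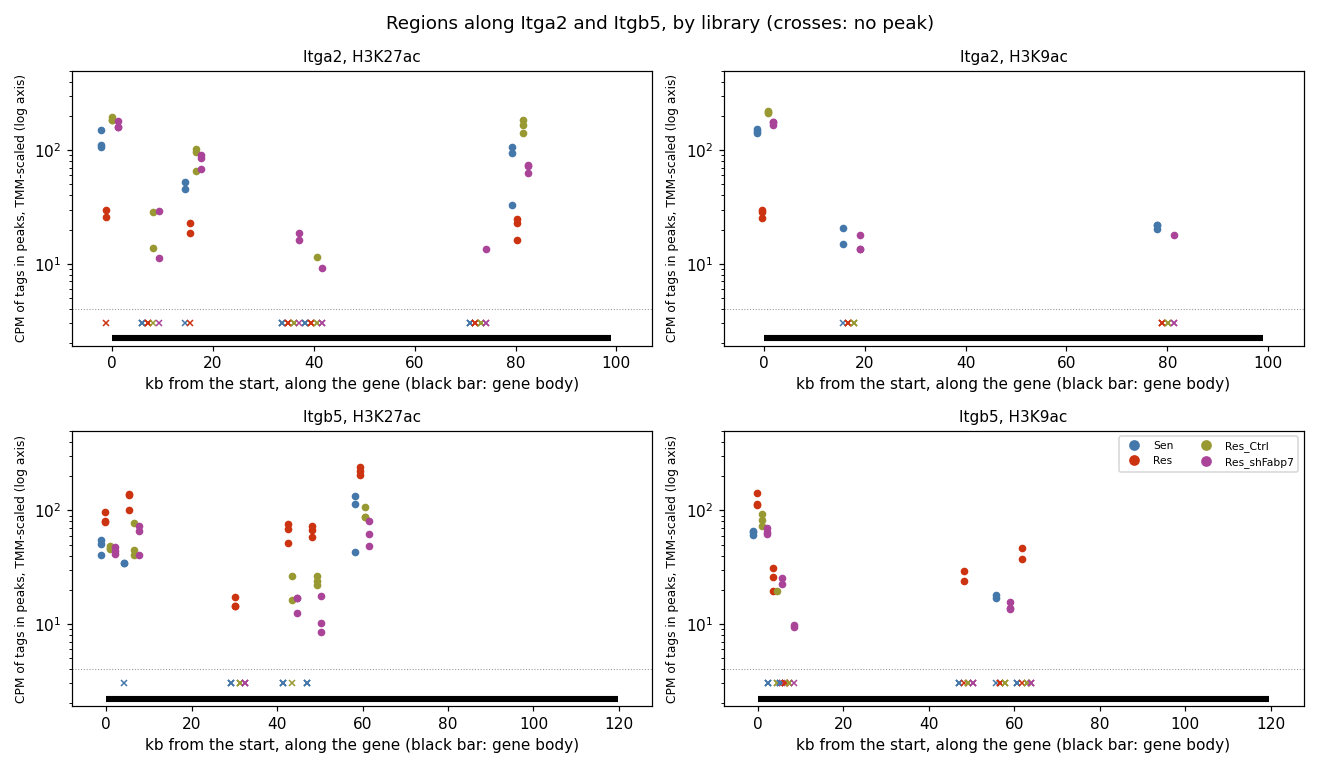
Levels of the H3K27ac (left) and H3K9ac (right) regions along Itga2 and Itgb5 (CPM, TMM-scaled, log axis) against distance from the gene's start in kb, with 1 point per library, groups set slightly apart and crosses for libraries with no peak. In the H3K27ac panel of Itgb5 the Res points lie above the Sen points from the start region to the lead region, and at the start of Itga2 they lie below them in both marks.

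Itgb8, the beta chain of a receptor that activates TGF-beta, carried a region over its start (chr12:119237768-119239923) in Res and not in Sen. H3K27ac was 35.0, 36.7 and 39.3 in Res, absent from Sen and Res_shFabp7, and lower in the 1 Res_Ctrl library with a peak. H3K9ac was 43.6, 37.9 and 34.7 in Res and 15.3, 16.3 and 12.1 in Res_shFabp7, and absent from Sen and Res_Ctrl. The smallest H3K9ac peaks that the Sen libraries list were at 6.09 to 8.34 CPM, below the Res values of Itgb8. Itgb6, the other TGF-beta-activating beta chain, rose in H3K9ac by 0.43 ± 0.11 (edgeR adjusted p = 0.0078) in a region 44698 bases from its start, from 30.6, 30.8 and 28.7 to 42.2, 39.1 and 39.9. Its H3K27ac lead region differed by 0.04 ± 0.12.

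The remaining integrin calls were smaller. Itgb2, the leukocyte beta chain, had H3K27ac of 34.0, 54.6 and 48.4 in Sen and 23.6, 19.3 and 22.5 in Res and fell by 1.08 ± 0.20 (edgeR adjusted p = 0.004). Its alpha partners Itgal, Itgam, Itgax and Itgad had no region in any library. Itga5, the fibronectin receptor chain, fell by 0.63 ± 0.19 in H3K27ac, and its H3K9ac difference of -0.14 ± 0.06 did not pass. Itgae, in a region that lies on Haspin, rose by 0.53 ± 0.17 and 0.25 ± 0.08, and Itgb3 fell by 0.32 ± 0.09 in H3K9ac.

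Of the 9 collagens whose H3K27ac lead region was tested none rose there in Res, in edgeR at an adjusted or unadjusted p below 0.05 or in DESeq2. Over all collagen regions, 1 of 17 tested rose and 4 fell, against 17.2% and 13.7% of the genome's. A further 4 collagens gained their lead region. Gains were seen at 5 of 36 members that could be gained or lost in H3K27ac, against 2.58% of genes, and a loss at 1, against 1.91%. The gains were Col1a2, Col12a1, Col22a1, Col8a2 and Itgb8, and the loss was Itga10. The Col1a2 region (chr6:4506064-4508447), 446 bases inside the start of this collagen I chain, had 25.5, 26.2 and 23.0 in Res and no peak in the 9 other libraries. Col12a1, a FACIT collagen, had 30.2, 20.3 and 16.0 in H3K27ac and 39.6, 22.5 and 21.7 in H3K9ac, both in Res alone. Col22a1, a FACIT collagen of tissue junctions, had 36.0, 55.1 and 49.2 in Res alone, and a second Res region close by had 39.0, 22.5 and 22.0. The Col8a2 lead region had 26.2, 21.8 and 19.7 in Res, none in Sen, and a peak in 1 Res_Ctrl and 1 Res_shFabp7 library. The smallest H3K27ac peaks that Sen replicates 1 to 3 list were at 14.9, 8.25 and 8.31 CPM. The weakest value of these gains, 16.0 at Col12a1, thus lay near the limit of Sen replicate 1. The Col12a1 H3K9ac values of 22.5 and 21.7 lay near the smallest peak of Res_Ctrl replicate 1, 18.9. In all, 6 of 87 member regions were H3K27ac regions of Res alone, against 3.09% of the genome's.

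Col1a1, the partner chain of Col1a2, had a region over the end of the gene with the lower coordinates (chr11:94935031-94939043). No start site was listed for Col1a1, so the region was not assigned to its start or its downstream end. H3K27ac was 32.3 and 36.9 in Sen replicates 2 and 3 with no peak in replicate 1, and 73.6, 80.5 and 94.9 in Res. It was 26.7, 22.2 and 33.3 in Res_Ctrl and 30.0, 29.8 and 31.3 in Res_shFabp7. Res was above all other libraries, and the missing Sen peak left Res against Sen untested. H3K9ac was listed at 54.4, 67.5 and 65.1 in Res, in 1 Sen and 1 Res_Ctrl library, and at 29.5, 26.6 and 22.0 in Res_shFabp7. The fibroblast list moved with these collagens at 1 of its 6 genes. Pdgfra H3K9ac was present in the 3 Res libraries and lost in Res_Ctrl, as at Col12a1. The summed H3K9ac level of the list was 19.1 to 26.3 in Res, 0 to 12.2 in Sen and 0 in the other libraries, with the other 5 genes at 0. In H3K27ac it was 34.1 in Res replicate 1 and 0 in the 11 other libraries. The part of such cells in the collagen gains was not tested.

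**Figure D5:**
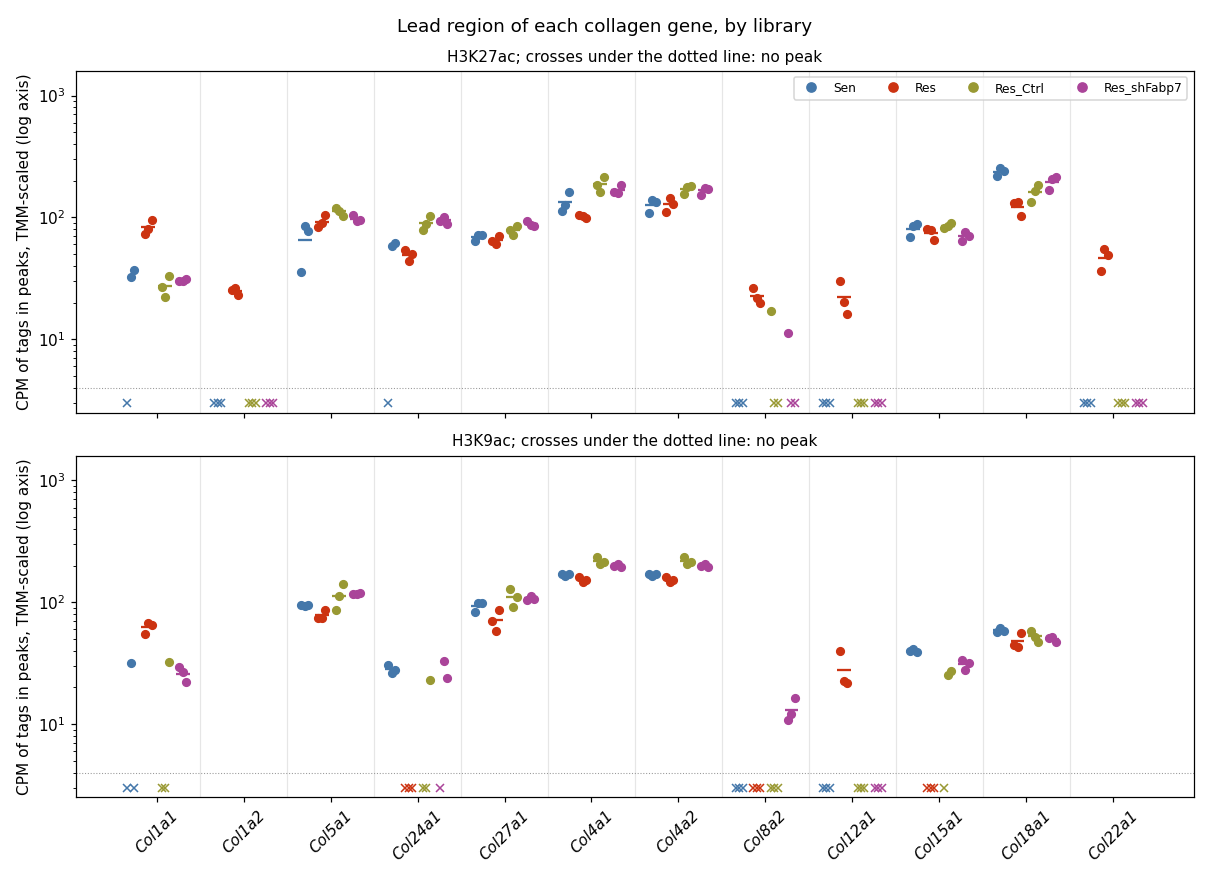
Level of the lead region (CPM, TMM-scaled, log axis) of collagen genes in each of the 3 libraries of the 4 groups, for H3K27ac and H3K9ac; short lines are means of groups with 3 peaks, and crosses under the dotted line stand for libraries with no peak. Col1a1 H3K27ac lies at 73.6 to 94.9 in Res and at 36.9 or less in the libraries of the other groups that had a peak.

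Col4a1 and Col4a2, the chains of the common collagen IV network, start 21 bases apart in opposite directions and share 1 start region. Its H3K27ac (chr8:11309010-11318088) was 113, 126 and 161 in Sen and 104, 103 and 98.3 in Res, a difference of -0.40 ± 0.14 with an edgeR adjusted p of 0.058. Its H3K9ac differed by -0.13 ± 0.06 and did not pass. Inside Col4a2, an H3K27ac region 56205 bases from the start (chr8:11369010-11374833) had 88.0, 110 and 108 in Sen and 57.1, 65.3 and 55.1 in Res and fell by 0.79 ± 0.13 (adjusted p = 0.0026). The H3K9ac region there had 49.8, 54.7 and 47.4 in Sen and no peak in Res. The H3K27ac fall inside Col4a2 stood on a chromosome whose median region rose by 0.34. The H3K27ac lead region of Col4a2 was another region and was not among the members that rose or fell. Col4a2 also had the 1 member H3K9ac region seen in Sen alone, at 12.7, 16.0 and 15.5, of 58 member regions and against 1.22% of the genome's. These values are below the smallest H3K9ac peaks that Res_Ctrl replicates 1 and 2 list, 18.9 and 16.7 CPM. The smallest that Res replicates 1 to 3 list were at 13.7, 12.3 and 13.3.

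Col18a1, a basement membrane multiplexin and the source of endostatin, fell by 0.96 ± 0.13 in H3K27ac (edgeR adjusted p = 0.00081) in a region inside the gene (chr10:77141142-77154760), from 217, 255 and 239 to 131, 133 and 102. Its start region was at 0.00 ± 0.17 in H3K27ac and fell by 0.30 ± 0.11 in H3K9ac. Another region inside it (chr10:77088787-77090872) was seen in Res alone. The fibrillar chains Col27a1 and Col5a1 fell by 0.41 ± 0.12 and 0.27 ± 0.07 in H3K9ac at their starts, and their H3K27ac values, -0.10 ± 0.12 and 0.46 ± 0.26, did not pass. Col23a1 rose by 0.28 ± 0.06 in H3K9ac, in a region on Phykpl at the far end of the gene. Col15a1 and Col24a1, another multiplexin and fibrillar collagen, lost their H3K9ac lead regions in Res. With Itga10 these made 3 lost and 2 gained of 29 members in H3K9ac, against 3.72% and 1.41% of genes, and the gains were Col12a1 and Itgb8.

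Over all member regions, not lead regions alone, H3K27ac gained 13 and lost 1 of 73 in Res, against 8.74% and 4.9% of the genome's regions. H3K9ac gained 3 and lost 16 of 48, against 2.68% and 14.2%. The H3K9ac lists of Sen were longer, at 15615 to 16457 peaks, than those of Res, at 12684 to 13782. With the same number of top peaks from each list the 16 losses became 5. The 4 H3K9ac member regions missing from Res alone were at Col4a2, Col5a1, Itga10 and Itga6, against 2.15% of the genome's. Without Sen replicate 1, the H3K27ac losses became 7 and the rises among lead regions 7 of 29 tested members. For the equal lists and without Sen replicate 1, the shares over all genes and regions are not given, so these counts have no background.

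Some calls of Res against Sen ended when 1 library was left out. In H3K27ac, Itga5 and Itgae passed only with all of Res replicates 1 to 3 and Sen replicates 2 and 3 (adjusted p of 0.08 to 0.13 and 0.071 to 0.14 without 1 of them). Itga6 did not pass without Res replicate 1 or 3 or Sen replicate 2 or 3 (0.07 to 0.077), nor Itgb5 without Res replicate 1 or 2 (0.059 and 0.074). In H3K9ac, Col18a1 did not pass without Res replicate 1 or 2 or Sen replicate 2 or 3 (0.079 to 0.13). Col27a1 and Itgae did not without Res replicate 2 or Sen replicate 2 or 3 (0.053 to 0.06 and 0.054 to 0.087), nor Itgb3 without Sen replicate 3 (0.061). The called length differed between the groups, and none of the 8 H3K27ac calls passed as tags per called base, where Itga5 was at 0.05. On that scale 0.428% of the genome's H3K27ac regions rose and 2.16% fell, against 17.2% and 13.7% by tags. In H3K9ac the median of all tested regions moved to 0.28 per called base, with 58.1% rising and 1.1% falling against 29.1% and 25% by tags. Col27a1 and Col5a1 rose there by 0.40 and 0.56, and Itga2 still fell.

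The next question is what knockdown of Fabp7 changed in resistant cells. Few members differed between Res_shFabp7 and Res_Ctrl at their lead region, and none rose there. In H3K27ac, Itgb2 and Itga10 fell, 2 of 26 tested members, where 1.16% of genes fell and 0.769% rose. In H3K9ac, Itga10 and Itga2 fell, 2 of 20, where 3.86% fell and 1.93% rose. At an unadjusted p below 0.05 in edgeR, 1 of the 26 and 1 of the 20 were higher, and DESeq2 called 0 rises in either mark. No collagen passed the test at its lead region in either direction, with DESeq2 also at 0. At an unadjusted p below 0.05 in edgeR, 1 lead region was lower in H3K27ac and 1 higher in H3K9ac. Over all collagen regions, 1 of 30 tested fell in H3K27ac and 0 rose, against 2.21% and 1.1% of the genome's. In H3K9ac 0 of 14 fell and 0 rose, against 5.2% and 2.44%. The median size of the member changes was 0.16 in H3K27ac and 0.11 in H3K9ac, against 0.13 and 0.10 over all genes.

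Itga2 H3K9ac fell by 0.33 ± 0.05 (1.26-fold lower, edgeR adjusted p = 0.0025), from 221, 217 and 214 to 178, 176 and 165, and remained above the 143 to 153 of Sen. This call held under all 16 alternatives run. The H3K27ac start region of Itga2 was at 185, 195 and 184 against 179, 160 and 158, a difference of -0.18 ± 0.09 that did not pass. The region inside Itga2 fell by 1.23 ± 0.12 (adjusted p = 0.0015), from 143, 185 and 166 to 62.6, 73.1 and 74.2, and kept its call under all 15 alternatives run. Itga10 fell by 0.75 ± 0.14 in H3K27ac (adjusted p = 0.022) and 0.63 ± 0.17 in H3K9ac (adjusted p = 0.042). Itgb2 fell by 0.85 ± 0.17 in H3K27ac (adjusted p = 0.027), from 69.2, 108 and 95.4 to 42.6, 51.2 and 55.4.

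The calls of Itga10 and Itgb2 did not hold when some single libraries were left out. Itgb2 did not pass without any 1 of Res_shFabp7 replicates 1 to 3 or Res_Ctrl replicates 2 and 3 (adjusted p of 0.062 to 0.095). Itga10 H3K27ac did not without Res_shFabp7 replicate 2 or 3 or Res_Ctrl replicate 2 (0.058 to 0.077), and Itga10 H3K9ac not without Res_shFabp7 replicate 1 or 3 or Res_Ctrl replicate 2 or 3 (0.067 to 0.16). With the replicate number as a block, although pairing of the libraries is not established, 4 members fell and 1 rose in H3K27ac. The share over all genes is not given for the block. Peaks of Res_shFabp7 were called longer, and per called base the median of all tested regions moved to -0.28 in H3K27ac and -0.22 in H3K9ac. On that scale 21 of 26 members and 48.8% of the genome's regions fell in H3K27ac, and 10 of 20 members and 30.8% of regions in H3K9ac.

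No member lost a lead region on knockdown, as 0.0675% of genes did in H3K27ac and 0.00867% in H3K9ac. In H3K9ac 2 of 31 gained one, Itgb8 and Col8a2, against 1.28% of genes, and in H3K27ac none did, against 1.65%. Col8a2, a short-chain network collagen, had H3K9ac of 10.7, 12.2 and 16.3 in Res_shFabp7 and in no other group. These values and the 12.1 to 16.3 of Itgb8 are below the smallest peaks that Res_Ctrl replicates 1 and 2 list, 18.9 and 16.7 CPM. Over all member regions 4 of 73 were gained in H3K27ac and 9 of 50 in H3K9ac, against 5.55% and 5.98% of the genome's, and none was lost, against 0.138% and 0.0322%. With equal numbers of peaks from each list no member region was gained in either mark, with no share over all regions given. The H3K27ac regions of Res_shFabp7 alone were at Col4a2 and Itga5, 2 of 87 against 1.79% of the genome's. Those of H3K9ac were at Col8a2 and Itgav, an RGD-binding alpha chain, 2 of 58 against 1.62%. Inside Itgb3, an H3K27ac region (chr11:104637816-104642465) rose by 1.68 ± 0.26 on knockdown (edgeR adjusted p = 0.01), from 13.6, 13.3 and 10.8 to 27.3, 39.5 and 53.2. Another H3K27ac region of Itgb3 (chr11:104613174-104616463) was missing from Res_Ctrl alone, 1 of 87 member regions against 0.0874% of the genome's. It had 20.5, 33.0 and 32.0 in Sen, 46.8, 47.2 and 36.5 in Res and 17.1, 19.9 and 17.9 in Res_shFabp7. Both Itgb3 regions were chosen after their values were seen. Collagen IV did not pass at its start, with -0.16 ± 0.11 in H3K27ac and -0.12 ± 0.06 in H3K9ac.

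Res_Ctrl differed from Res at many members, although both are the resistant line. Genotype and the PD-1 inhibitor treatment named for Res both differ between these groups and cannot be told apart. The endothelial marker Cdh5 had H3K27ac of 176, 189 and 174 in Res_Ctrl and 14.9 in 1 Res library, with the other 4 genes of its list at 0 throughout, and its part in the results was not tested. In H3K27ac 8 members rose and 7 fell of 25 tested, where 11.5% of genes rose and 20.2% fell. In H3K9ac 7 rose and 3 fell of 18, where 18.5% and 23.2% did. Res_Ctrl against Sen gave 5 rises and 2 falls of 23 in H3K27ac, where 6.67% and 7.22% of genes did, and 8 and 0 of 19 in H3K9ac, where 15.9% and 15.2% did. DESeq2 also called 8 and 0 there, and edgeR at an unadjusted p below 0.05 gave 10 and 0. Col4a1 and Col4a2 share their H3K9ac lead region and count as 2 members. These comparisons share libraries with each other and with those above, so the values are set side by side only. With chromosome medians removed, 14.1% of all H3K27ac regions rose and 12.2% fell from Res to Res_Ctrl, against 15.9% and 21.1% without. Per called base 5.48% rose and 2.09% fell. In H3K9ac of Res_Ctrl against Sen the per-base median of all regions was 0.22.

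The Itga2 H3K9ac start region rose by 2.96 ± 0.08 from Res to Res_Ctrl (7.76-fold, edgeR adjusted p = 1.5e-09) and was 0.56 ± 0.05 above Sen (adjusted p = 1.7e-05). The H3K27ac region inside it rose by 2.96 ± 0.17 from Res to Res_Ctrl. Itgb2 H3K27ac rose by 2.05 ± 0.19 from Res and was 0.97 ± 0.21 above Sen. Itga10 was gained in both marks from Res and was 1.13 ± 0.16 and 1.04 ± 0.17 above Sen. Itgb1 H3K9ac rose by 0.32 ± 0.06 from Res and 0.62 ± 0.06 from Sen, on a chromosome whose medians were 0.22 and 0.54. With chromosome medians removed Itgb1 was at 0.09 and 0.07 and did not pass. Itga1 H3K9ac was at 0.02 ± 0.11 against Res and 0.00 ± 0.10 against Sen. The Itgb2 rise over Sen did not pass without Res_Ctrl replicate 2 or 3 (adjusted p of 0.065 in both).

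Itgb4, Itgb5, Itga3, Itga2b and Col1a1 fell from Res to Res_Ctrl. Itgb4 H3K9ac fell by 0.75 ± 0.08 from Res to Res_Ctrl (edgeR adjusted p = 2.2e-05) and stayed 0.81 ± 0.08 above Sen. Itgb5 fell by 1.23 ± 0.12 in its H3K27ac lead region and by 0.57 ± 0.12 in H3K9ac, with differences from Sen of -0.06 ± 0.32 and 0.35 ± 0.10. Its H3K9ac rise over Sen did not pass without Res_Ctrl replicate 2 (adjusted p = 0.063). Itga3, in H3K27ac, fell by 0.40 ± 0.09 against a chromosome 11 median of -0.42, and was at 0.01 with chromosome medians removed. Col1a1 H3K27ac fell by 1.59 ± 0.17 (adjusted p = 0.0001) and kept its call under all 14 alternatives run. Itga2b, the platelet alpha chain, fell by 1.26 ± 0.24 in H3K27ac. The Res regions of Col1a2, Col12a1 and Col22a1 were all lost in Res_Ctrl, in H3K27ac 3 of 36 members against 1.89% of genes, and Itga10 alone was gained, against 2.3%. In H3K9ac Col12a1 and Itgb8 were lost, 2 of 28 against 1.11%, and Itga10 was gained, against 1.01%. Over all member regions, 3 of 80 were gained and 7 lost from Res to Res_Ctrl in H3K27ac, against 7.52% and 7.09% of the genome's. In H3K9ac 4 of 36 were gained and 2 lost, against 3.35% and 2.69%. Against Sen, 1 of 62 was gained and 1 lost in H3K27ac (3.24% and 1.36%), and 0 of 43 gained and 5 lost in H3K9ac (0.65% and 6.07%).

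The shared start region of the main collagen IV chains rose from Res to Res_Ctrl. Shared by Col4a1 and Col4a2, it rose by 0.89 ± 0.12 in H3K27ac (edgeR adjusted p = 0.0003), to 186, 162 and 215, and by 0.50 ± 0.07 in H3K9ac (adjusted p = 0.00016). Against Sen these were 0.49 ± 0.15, which did not pass, and 0.38 ± 0.06, which did. The median H3K9ac region of chromosome 8 was 0.54 above Sen, and with chromosome medians removed the last value was -0.17. The region inside Col4a2 that had fallen in Res rose by 1.07 ± 0.12 from Res to Res_Ctrl. The other collagen IV chains with a region, Col4a5 and Col4a6, share 1 region (chrX:141474689-141476651 in H3K9ac) that was lower or absent in Res_Ctrl. It had 33.2, 36.7 and 34.1 in Res, 14.8 in 1 Res_Ctrl library, 13.9 in 1 Sen library and 18.0, 22.7 and 18.5 in Res_shFabp7. Its H3K27ac was 26.5 and 28.9 in Res replicates 1 and 2, with no peak in Sen or Res_Ctrl and a peak in 2 Res_shFabp7 libraries. Missing peaks left Col4a5 and Col4a6 untested. Col27a1 and Col5a1 H3K9ac rose by 0.62 ± 0.15 and 0.56 ± 0.15, Col5a1 not without Res_Ctrl replicate 3 (0.35, adjusted p = 0.052). Of the 4 H3K27ac rises among collagens from Res to Res_Ctrl, Col18a1 (0.40 ± 0.14) did not pass with a replicate block (adjusted p = 0.053).

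Around the members, 4 fixed lists held genes that process collagen, bind integrins or act beneath them. Of 30 genes for collagen modification and secretion, 18 were tested in H3K27ac of Res against Sen, with 1 rise and 3 falls, and 21 in H3K9ac, with 5 and 7. Over all tested genes 16.1% rose and 11.1% fell in H3K27ac and 28.9% and 24.4% in H3K9ac, which are the shares to read the counts of these 4 lists against. Serpinh1, the chaperone of the collagen triple helix, lost its region in Res in both marks and was present in Res_Ctrl. On knockdown its H3K9ac fell by 1.83 ± 0.20 (edgeR adjusted p = 0.00042), the largest change of the listed genes there, and the call held under all 14 alternatives run. P3h2, a collagen prolyl hydroxylase, rose by 1.44 ± 0.13 in H3K9ac in Res.

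Of 27 integrin ligands other than collagen, 5 rose and 3 fell of 16 tested in H3K27ac, and 3 rose and 7 fell of 15 in H3K9ac. Vcam1, a ligand of leukocyte integrins, fell by 1.84 ± 0.16 and 1.86 ± 0.13 in Res. Thbs1, a matrix protein that activates TGF-beta, rose by 1.55 ± 0.16 and 1.49 ± 0.11. The laminin chain Lama5 fell by 1.63 ± 0.07 in H3K9ac. Per called base the H3K27ac values of Vcam1 and Thbs1 were -0.50 and 0.42 and did not pass. Of 29 genes of integrin activation and the adhesion plaque, 4 rose and 5 fell of 23, and 6 rose and 11 fell of 25. Fermt1, the epithelial kindlin, fell by 2.02 ± 0.28 and 0.73 ± 0.06, and the plaque protein Tns3 rose by 1.39 ± 0.13 and 1.30 ± 0.07, the first not passing per called base (0.31).

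Of 17 other collagen receptors and collagen-degrading enzymes, only 3 were tested in each mark. In H3K27ac 2 of the 3 rose, where 16.1% of genes did, and in H3K9ac all 3, Timp2, Mmp14 and Ddr1, where 28.9% did, with none falling, too few to describe the list. Timp2, an inhibitor of matrix metalloproteinases, rose by 0.74 ± 0.09 and 0.51 ± 0.05, the first turning to -0.06 per called base. Ddr1, a tyrosine kinase receptor for collagen, rose by 0.34 ± 0.09 and 0.38 ± 0.06, and with chromosome medians removed was at 0.00 and 0.08 and did not pass. Its H3K27ac call also ended without Res replicate 2 or 3 or Sen replicate 2 (adjusted p of 0.06 to 0.099). On knockdown the 4 lists together held 1 rise and 3 falls of 61 tested genes in H3K27ac, where 0.769% and 1.16% of all genes did. In H3K9ac they held 2 rises and 10 falls of 63, where 1.93% and 3.86% did. The H3K27ac rise was Vcam1, by 0.56 ± 0.13 (edgeR adjusted p = 0.044), which did not pass without any 1 of the 6 libraries (0.058 to 0.19) and fell by 0.62 per called base. The H3K9ac rises were Lims1, an adaptor of the plaque, by 0.31 ± 0.08, and the kinase Src, by 0.23 ± 0.06, both named after their values were seen. Tns4, a tensin, fell by 0.66 ± 0.12 and 0.93 ± 0.09, and Bcar1, a docking protein of the plaque, fell by 0.42 ± 0.05 in H3K9ac. The H3K27ac call of Tns4 did not pass without Res_shFabp7 replicate 2 or 3 or Res_Ctrl replicate 2 or 3 (adjusted p of 0.051 to 0.07).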

How the data were processed

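Immunoprecipitated chromatin of 24 libraries (2 marks, 4 groups, 3 libraries each) was analysed as deposited peak lists, 1 per library. Per the labels' protocols, fixation was in 1% formaldehyde (10 minutes), and single 50-base reads were sequenced, 53 to 158 M per sample. The submitters' processing notes name Bowtie 1.1.2, MACS 1.4.2 and the build mm10; use of the inputs as control and the treatment of duplicates are not given in the sources used here. For every peak the authors deposited a count of its tags, not scaled to depth, and a score that grows with the −log10 of its p-value and is at least 50.0 (p of 1e-05). The fold of a peak, a ratio of tags over background by the authors' caller as deposited, was not used. The total reads per library are not in the lists, and the precision of a value is limited by its tags: peaks held at least 29 to 72 tags depending on the library. Within a group at most 2 intervals recurred exactly between replicates and none with the same tags, so each library counted as 1 replicate.

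Peaks overlapping by at least 1 base were merged per mark, tags were summed per region and library, and genes were taken from the RefSeq table of GRCm38.p6, without transcripts. Regions with a peak in all 6 compared libraries were fitted with edgeR 4.0.16 in R 4.3.3 (quasi-likelihood, group as the only term, adjusted p below 0.05), after tests on simulated data. The alternatives were DESeq2 1.42.0, no regions under 100 mean tags, tags per called base, offsets for chromosome medians or an intensity trend, 1 fit of all groups, peaks with a score of at least 100 (p of 1e-10), merging over 500 bases, equal numbers of peaks, the region nearest the start, a replicate block and leaving out each library. Libraries of the same replicate number were compared by correlations of deviations from group means. In H3K27ac these were 0.419, 0.187 and 0.234 for Res_shFabp7 and Res_Ctrl and 0.382, 0.102 and 0.105 for Res_Ctrl and Res. Sen and Res_Ctrl gave 0.333, 0.093 and 0.186. Libraries of unlike numbers were not compared and the labels name no pairing, so pairing is not established.

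In each mark, for the comparisons of Res with Sen and of Res_shFabp7 with Res_Ctrl, the text names up to 8 members per direction with the largest change past the threshold, every member with a gained or lost lead region, Col4a1, Col4a2, Itgb1 and the collagen-binding alpha chains, and up to 3 genes per pathway list. Members, lists and rules were chosen with earlier results of these data known, and regions other than lead regions were named after their values were seen. Printed sequences are from the RefSeq promoter table of GRCm38.p6.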

Additional observations from a re-analysis of the deposited data

How the results depend on the processing

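Over the 69 values of named members and all alternatives, 900 kept direction and call, 147 kept direction but no longer passed and 21 changed sign, and 16 of the 69 kept both under all alternatives run. For the named pathway genes these were 457, 85 and 4. Counts below are of members, or of member regions where gained or lost, and the cause of a change was not tested. Shares over all genes or regions are not set beside them. Tags grow with the called length, and the tags of a library limit which weak regions it lists. Leaving out regions under 100 mean tags and the intensity trend offset moved no count by over 1.5 times. Taking every symbol that begins with Itga or Itgb moved none either, with 1 more H3K9ac rise in Res against Sen and in Res_Ctrl against Sen.

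As tags per called base, H3K27ac gave 0 rises and 0 falls in Res against Sen (4 and 4 as reported), 21 falls in Res_shFabp7 against Res_Ctrl (2), 2 rises and 1 fall in Res_Ctrl against Res (8 and 7), and 0 and 0 in Res_Ctrl against Sen (5 and 2). H3K9ac gave 12 rises and 1 fall in Res against Sen (7 and 5), 10 falls on knockdown (2) and 1 rise in Res_Ctrl against Res (7). With chromosome medians removed, H3K27ac gave 2 rises in Res against Sen, 5 rises and 4 falls in Res_Ctrl against Res and 3 rises and 1 fall in Res_Ctrl against Sen. H3K9ac then gave 3 rises in Res against Sen and 1 fall on knockdown. With the region nearest the start, H3K27ac gave 2 falls in Res against Sen, 5 rises in Res_Ctrl against Res and 0 falls in Res_Ctrl against Sen, and H3K9ac 1 rise on knockdown and 1 fall in Res_Ctrl against Sen.

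With scores of 100 or more, H3K27ac gave 2 falls, 7 gains and 0 losses in Res against Sen, 1 gain on knockdown, 4 falls in Res_Ctrl against Res and 1 fall, 0 gains and 0 losses in Res_Ctrl against Sen. H3K9ac gave 9 losses in Res against Sen, 1 fall and 3 gains on knockdown, 2 gains in Res_Ctrl against Res and 2 losses in Res_Ctrl against Sen. With equal numbers of peaks, H3K27ac gave 3 losses, 0 gains, 6 gains and 2 gains in the 4 comparisons in that order. H3K9ac gave 5 losses, 0 gains, 1 gain with 4 losses, and 3 losses. DESeq2 gave 4 H3K27ac falls on knockdown and 8 rises in Res_Ctrl against Sen. 1 fit of all 4 groups gave 1 H3K27ac fall on knockdown, 4 falls in Res_Ctrl against Res, and in H3K9ac 3 falls in Res against Sen and 1 on knockdown. Merging over 500 bases left 0 H3K27ac losses in Res_Ctrl against Sen.

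The replicate block gave 1 rise and 4 falls in H3K27ac on knockdown. In H3K27ac the correlations of libraries of the same number were 0.274, 0.072 and 0.135 for Sen and Res. They were 0.333, 0.093 and 0.186 for Sen and Res_Ctrl, and 0.446, 0.229 and 0.294 for Sen and Res_shFabp7. In the H3K9ac comparisons they ran from -0.056 to 0.152. Libraries of unlike numbers were not compared, so these values do not decide which groups were paired. Outside H3K27ac of Res_shFabp7 against Res_Ctrl and of Res_Ctrl against Res, the block moved no count by over 1.5 times. Itga10 H3K9ac was then at -0.64 on knockdown (edgeR adjusted p = 0.072).

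Leaving out 1 library gave, in H3K27ac, 2 to 7 rises, 2 to 5 falls and 1 to 7 losses in Res against Sen, 0 to 3 falls and 4 to 8 gains on knockdown, 5 to 8 rises, 3 to 7 gains and 7 to 11 losses in Res_Ctrl against Res, and 2 to 6 rises, 0 to 2 falls, 1 to 5 gains and 1 to 5 losses in Res_Ctrl against Sen. In H3K9ac it gave 2 to 7 falls in Res against Sen, 1 to 3 falls and 9 to 16 gains on knockdown, 4 to 8 gains and 2 to 7 losses in Res_Ctrl against Res, and 0 to 1 falls, 0 to 1 gains and 5 to 11 losses in Res_Ctrl against Sen.

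Changes of sign in H3K27ac were, per called base, Itga5 (0.053) and Timp2 (-0.06) in Res against Sen, Vcam1 (-0.62) on knockdown and Itga5 (-0.14) in Res_Ctrl against Res. With chromosome medians removed they were Col23a1 (0.07) and Itga3 (0.01) in Res_Ctrl against Res and Col4a2 (-0.18) and Itgb1 (-0.044) in Res_Ctrl against Sen. With the region nearest the start they were Col18a1 (0.003) and Lamc1 (0.08) in Res against Sen, Col24a1 (-0.35) in Res_Ctrl against Res and Col18a1 (0.035) in Res_Ctrl against Sen. In H3K9ac of Res against Sen they were, per called base, Col5a1 (0.56), Col27a1 (0.40), Col18a1 (0.032) and Itgb3 (0.038), with chromosome medians removed Itgb1 (-0.013), Col23a1 (-0.077), Itgae (-0.11) and Itga3 (-0.043), and nearest the start P4ha3 (1.06). Col5a1 was at -0.14 per called base and Col23a1 at 0.10 with chromosome medians removed in Res_Ctrl against Res, and the shared Col4a1 and Col4a2 region at -0.17 in Res_Ctrl against Sen.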
